A study of Macaca fascicularis with 9 samples.

Results

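The genes described here are the transferrin receptor gene TFRC and 7 further iron handling genes, TF, SLC11A2, SLC40A1, CP, ACO1, IREB2 and HFE. They were chosen by name, from a list of 10 iron genes, because the carrier given to 3 of the animals binds the transferrin receptor. Of the 29128 features in the count matrix, 8 carry one of the 10 names, and the ferritin genes FTH1 and FTL were not analysed here. Nuclei were isolated from thalamus of 9 cynomolgus monkeys (Macaca fascicularis), all female and of no stated strain or age, and sequenced one by one. Saline animals (n = 3) received 4 intravenous doses of saline, given every other week. ASO animals (n = 3) received 1 intrathecal dose of 4 mg of an antisense oligonucleotide against the long non-coding RNA MALAT1. OTV animals (n = 3) received 4 intravenous doses, every other week, of OTV:MALAT1 at 30 mpk, which joins a MALAT1 oligonucleotide to the receptor-binding carrier. In all 3 groups, collection followed the final dose by 2 weeks. Route, number of doses and carrier differ together between the ASO and OTV groups, so their effects cannot be told apart. No group received the carrier alone.

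Iron travels in blood and interstitial fluid bound to transferrin, which cells take up by endocytosis through the transferrin receptor. Iron leaves the endosome through a divalent metal transporter, is used or stored in ferritin, and leaves the cell through ferroportin, helped by a ferroxidase such as ceruloplasmin. Inside cells, the iron regulatory proteins bind iron-responsive elements in messenger RNAs, which stabilises the receptor message when iron is scarce. In brain, oligodendrocytes are known for making transferrin and holding much of the iron, and endothelial cells of the vessels carry the receptor that moves transferrin across the blood-brain barrier.

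The 9 libraries held 2956 to 11992 nuclei and 19981249 to 98850459 unique molecular identifiers (UMIs, counted RNA molecules) per animal, with medians of 2579 to 7791 UMIs per nucleus, lowest in OTV replicate 3. The targeted MALAT1 took 5.38% to 6.36% of UMIs in saline, 4.15% to 5.60% in ASO and 3.12% to 3.80% in OTV animals. Of 79232 distinct barcodes, 760 (0.959%) occurred in more than 1 animal. A score of 6 regional astrocyte genes, 3 against 3 on a log2 scale, ran from -2.60 to 3.61 in saline, from -2.84 to 4.47 in ASO and from 3.41 to 4.27 in OTV animals, and it was below 0 in saline replicates 1 and 3 and ASO replicate 3. The 13 protein genes of the mitochondrial genome, whose RNA lies outside the nucleus, summed to 45.2 to 264 CPM (UMIs of a gene per 1000000 UMIs) among saline, 3.68 to 7.93 among ASO and 545 to 1454 among OTV animals. These 3 ranges do not overlap. The 37 ribosomal protein genes summed to 559 to 1022, 946 to 1594 and 465 to 775 CPM in the same order. The ribosomal sums of saline animals overlap those of both treated groups, and the regional score overlaps among all 3 groups and differs widely within saline and ASO. Some results below are also given with a term for the regional score in the fit. The part of the mitochondrial and ribosomal sums in the results below was not tested.

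The authors' annotation gave 61578 oligodendrocytes, 6233 oligodendrocyte precursors (OPCs), 5727 myeloid nuclei, 4411 astrocytes, 1714 neurons and 331 nuclei named unknown, in 17 clusters. It holds no endothelial class. In myeloid nuclei of saline animals the endothelial genes VWF and PECAM1 averaged 541 and 36.7 CPM, while CDH5, which defines endothelial cells, averaged 0.19 CPM. The receptor of the vessel wall was therefore not measured in a class of its own. Levels below are CPM of the UMIs summed over the nuclei of 1 type in 1 animal. They are compared between types and animals, not between genes. Each order of types below is over the 5 named types, without the unknown nuclei. Types and clusters were built from these same counts, so no type or cluster was tested against another. The plot of levels by cell type shows all 8 genes in all 9 animals.

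**Figure D1:**
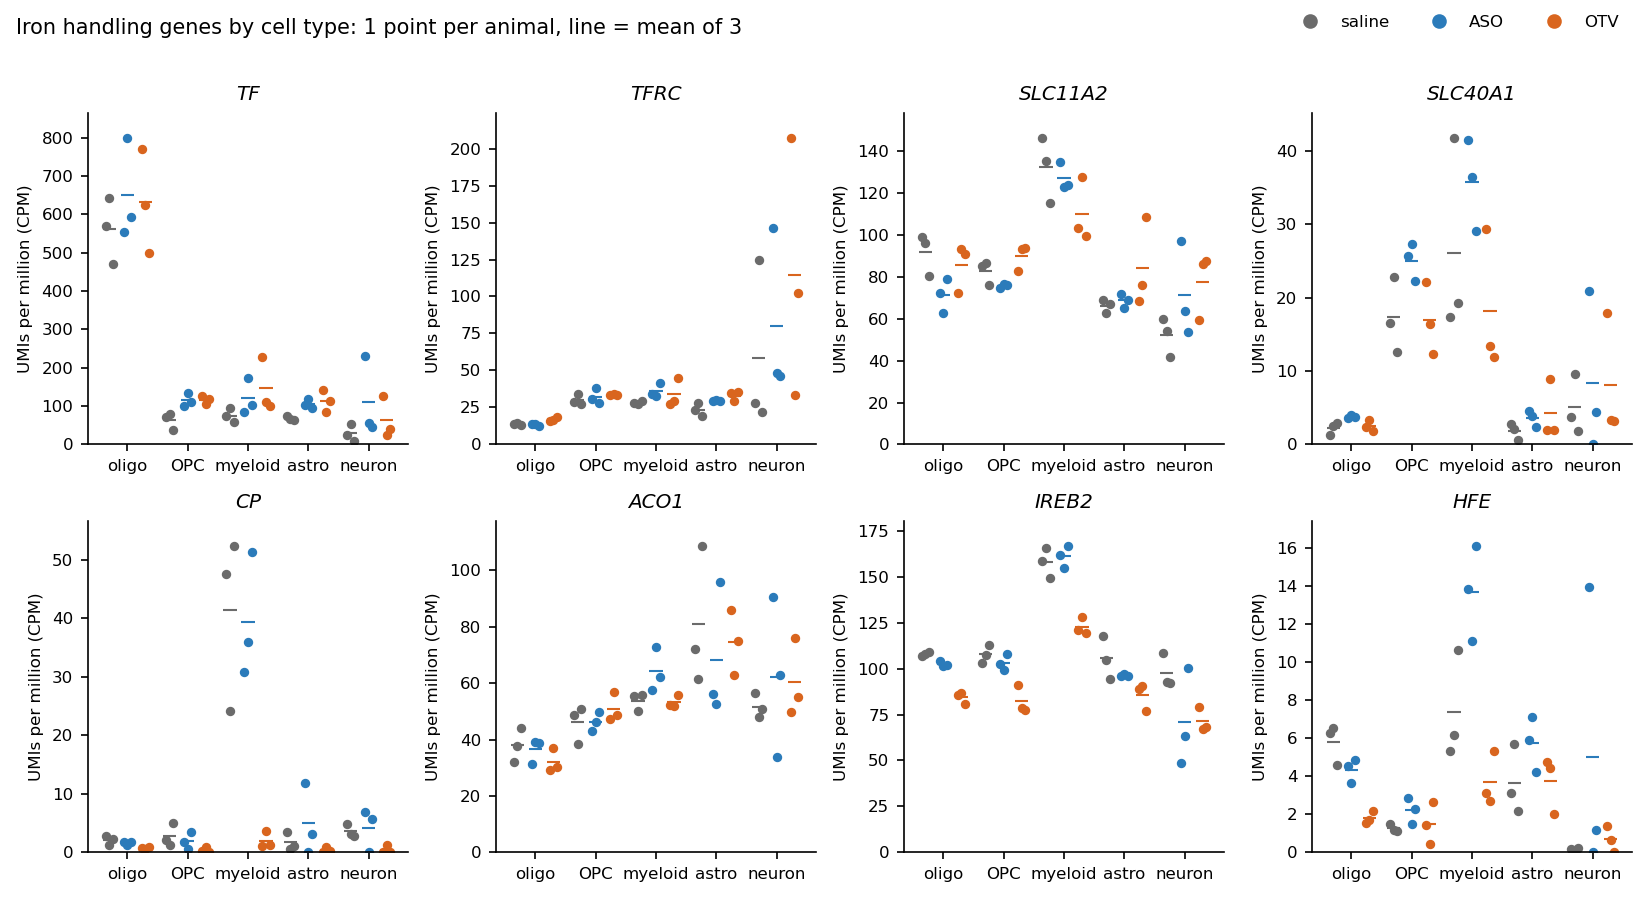
Levels of the 8 iron handling genes, in CPM, in 5 cell types. Each point is 1 animal (grey saline, blue ASO, orange OTV) and each line the mean of 3. TF lies far above all other types in oligodendrocytes, CP is near 0 in OTV myeloid nuclei, and neuronal TFRC scatters most.

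TF encodes transferrin, the iron carrier that is the receptor's ligand. Its level in oligodendrocytes of saline animals was 570, 642 and 471 CPM in replicates 1 to 3. All other types were far lower there, with means of 75.3 ± 17.5 CPM in myeloid nuclei, 67.8 ± 6.01 for astrocytes, 63.5 ± 22.6 for OPCs and 29.6 ± 22.5 in neurons (SD, n = 3 animals). Oligodendrocytes had the highest TF level in 9 of 9 animals and held 92.3% of its UMIs in saline animals, against 57.5% of all UMIs. Among the oligodendrocyte clusters, the saline mean ran from 494 CPM in cluster 1 to 674 CPM in cluster 5. Across the 17 clusters, the genes whose saline levels were most like TF included C10orf90 and CNP (Pearson r of log2(CPM + 1), 0.99 and 0.98), and CNP encodes a protein of myelin.

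After treatment, TF in oligodendrocytes was 555, 800 and 593 CPM in ASO and 772, 624 and 498 CPM in OTV animals. The 3 groups overlap, and the OTV minus saline log2 fold change of 0.22 (SE 0.21) was not called (edgeR quasi-likelihood test, adjusted p = 0.508). Outside oligodendrocytes TF rose with OTV in OPCs and astrocytes. In OPCs it was 72.2, 80.5 and 37.9 CPM in saline, 99.3, 135 and 110 in ASO, and 127, 106 and 118 in OTV animals. Every treated animal lies above every saline animal there, with edgeR estimates on the log2 scale of 0.92 (SE 0.23, adjusted p = 0.0173) for OTV and 0.79 (SE 0.23, adjusted p = 0.220) for ASO. In astrocytes it was 74.5, 65.6 and 63.1 CPM in saline and 142, 85.2 and 113 in OTV animals, which do not overlap (log2 fold change 0.80, SE 0.22, adjusted p = 0.0350, edgeR). ASO astrocytes had 94.5 to 118 CPM, which also lies above every saline animal and overlaps OTV, and ASO minus saline was not called. In myeloid nuclei, TF reached 229, 110 and 99.5 CPM in OTV against 73.0, 93.8 and 59.1 in saline animals, and the log2 fold change of 0.93 (SE 0.38) was not called (adjusted p = 0.155).

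Messages of oligodendrocytes were also higher in these types in OTV than in saline animals. The level of TF in OPCs, as a share of that in the same animal's oligodendrocytes, had a mean of 11.1% for saline animals, 17.8% for ASO animals and 19.1% for OTV animals. For the myelin genes MOBP, MOG and MAG the mean share in OPCs was 2.84%, 3.53% and 5.87% in saline, 2.72%, 6.26% and 10.5% in ASO, and 8.19%, 10.8% and 13.5% in OTV animals. In astrocytes the TF share was 12.2% for saline, 16.4% for ASO and 18.2% for OTV. The same 3 myelin genes had 2.34%, 2.41% and 4.53% there in saline, 1.98%, 2.99% and 5.33% in ASO, and 7.16%, 6.05% and 6.72% in OTV animals. All 3 mean shares were thus higher in OTV than in saline animals, in unequal proportion. In ASO animals the MOG, MAG and TF means were above saline in both types, and the MOBP mean was slightly below it. The part of these myelin messages in the TF result was not tested. The TF call in OPCs was lost with a term for the regional score (0.76, adjusted p = 0.0639) and without OTV replicate 1 or 3 (adjusted p = 0.0554 and 0.0540). In astrocytes it was lost with the regional term (adjusted p = 0.0851), in a fit of only the 6 animals compared (0.0554), without saline replicate 1, 2 or 3 (0.0766, 0.0947 and 0.0818) and without OTV replicate 1 or 3 (0.107 and 0.0926).

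**Figure D2:**
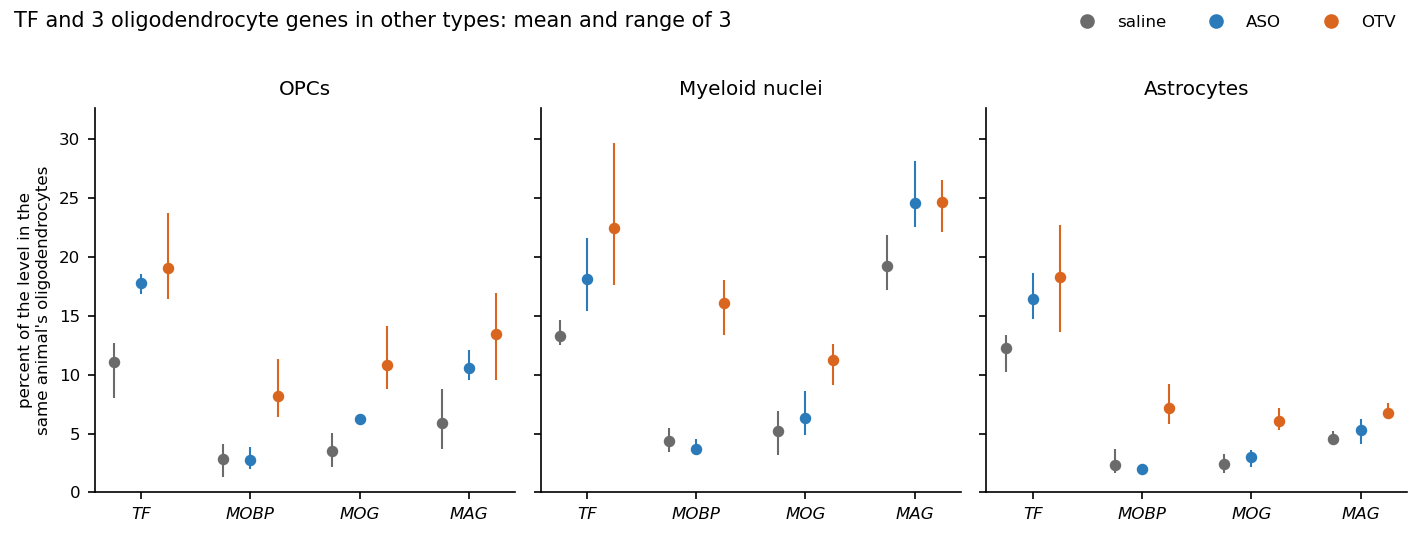
TF and 3 oligodendrocyte genes in OPCs, myeloid nuclei and astrocytes, each as a percentage of the level in oligodendrocytes of the same animal. Points are means of 3 animals and lines run from the lowest to the highest animal. All 4 genes have a higher mean in OTV than in saline animals in each type, as in OPCs (TF 19.1% against 11.1%, MOBP 8.19% against 2.84%).

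TFRC encodes the transferrin receptor, the docking site of the OTV carrier. Its saline means ran from 58.2 ± 57.4 CPM in neurons through 30.2 ± 3.52 for OPCs, 28.1 ± 1.03 for myeloid nuclei and 23.5 ± 4.29 for astrocytes to 13.6 ± 0.711 in oligodendrocytes (SD, n = 3). Oligodendrocytes were lowest in 9 of 9 animals and did not overlap with astrocytes in saline, while each of the other neighbours in this order overlapped. Neurons were highest in 6 of 9 animals. Their place in saline rests on replicate 2, with 23 neuronal nuclei, since both other saline neuronal values lie below the OPC mean. Their level was 28.3, 124 and 21.9 CPM in saline, 146, 48.6 and 46.4 in ASO, and 207, 33.3 and 102 in OTV animals. These neuronal values scatter widely within every group, and rest on 17 to 527 nuclei per animal. Within the oligodendrocytes TFRC was lowest in clusters 10 and 3 (7.85 and 9.31 CPM, saline means) and highest in clusters 2 and 1 (15.0 and 14.9 CPM). The genes most like TFRC over the 17 clusters were PTPRJ, MIDN and DEAF1 (Pearson r 0.94, 0.93 and 0.91). TFRC, MIDN and DEAF1 had the same highest cluster level, 36.8 CPM. MIDN and DEAF1 reached it in cluster 14, which holds only 14, 16 and 44 nuclei of saline replicates 1 to 3. Their likeness to TFRC therefore leans on few UMIs.

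The TFRC message was not called by edgeR with TMM normalization in any type after either treatment. In oligodendrocytes it was 13.6, 14.3 and 12.9 CPM in saline, 14.1, 14.0 and 12.8 in ASO, and 15.7, 16.8 and 18.3 in OTV animals. All 3 OTV animals lie above the other 6. The OTV minus saline log2 fold change was 0.36 (95% interval 0.06 to 0.65, adjusted p = 0.0903, edgeR), a fold of 1.28, and OTV minus ASO was 0.40 (0.10 to 0.69, adjusted p = 0.0505). DESeq2 called both (adjusted p = 0.0365 and 0.00794), and edgeR with DESeq2's size factors called OTV minus ASO (0.41, adjusted p = 0.0440). In sums thinned to equal totals, OTV minus saline was 0.19 (adjusted p = 0.50, edgeR). Saline and ASO did not differ detectably, with a log2 fold change of -0.04 and an interval from -0.33 to 0.26.

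In astrocytes TFRC was 23.4, 27.8 and 19.2 CPM in saline, 29.3, 30.2 and 29.0 in ASO, and 34.6, 29.3 and 35.3 in OTV animals. Both treated groups lie wholly above saline and overlap each other. The log2 fold changes were 0.54 (0.11 to 0.96, adjusted p = 0.0866, edgeR) for OTV and 0.26 (-0.17 to 0.68, adjusted p = 0.970) for ASO. An exact permutation test of the differences among the 3 groups, over 280 partitions of the 9 animals, gave two-sided p = 0.0107 in astrocytes, 0.0357 in oligodendrocytes and 0.0964 in all nuclei. Adjusted over all nuclei and the 5 types these became 0.0643, 0.107 and 0.193, and the smallest p the design allows is 0.00357. The same exact test gave an unadjusted p of 0.343 in myeloid nuclei, 0.546 in OPCs and 0.629 in neurons. Without ASO replicate 1 or 3 the exact p in astrocytes became 0.0536 or 0.0571.

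In the other types the interval of the TFRC difference includes 0. Myeloid nuclei had 27.7, 27.2 and 29.2 CPM in saline, 34.1, 32.5 and 41.8 in ASO, and 27.0, 29.5 and 45.1 in OTV animals. The ASO animals lie above saline, and OTV overlaps both, with OTV replicate 3 the highest of all 9. The OTV minus saline log2 fold change was 0.18 (-0.31 to 0.67) in myeloid nuclei, 0.19 (-0.15 to 0.54) in OPCs and 1.12 (-0.67 to 2.92) in neurons. Without OTV replicate 3 the myeloid value became -0.05. The neuronal TFRC value was 2.03 without saline replicate 2 and 0.42 without OTV replicate 1, and 0.47 with the regional term. It was 0.78 and 0.71 without saline replicate 1 or 3.

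SLC11A2 encodes the divalent metal transporter DMT1, which takes iron out of the endosome. In saline animals it was highest in myeloid nuclei (133 ± 15.8 CPM), which did not overlap with oligodendrocytes (91.8 ± 9.92), and lowest in neurons (52.1 ± 9.27, SD, n = 3). Myeloid nuclei led in 8 of 9 animals. The only call was between OTV and ASO in OPCs, where the level was 82.7, 93.3 and 94.0 CPM in OTV, 74.5, 76.5 and 76.1 in ASO, and 85.3, 86.5 and 76.4 in saline animals. OTV lies above ASO in 3 of 3 animals and overlaps saline. The log2 fold change of 0.34 (SE 0.10, adjusted p = 0.0286, edgeR) fell to 0.21 (adjusted p = 0.284) in sums thinned to equal totals. It was also not called with the regional term (adjusted p = 0.0608), without a filter on low counts (0.123), in a fit of only the 6 animals compared (0.0685), or without any 1 of saline replicates 1 and 2, ASO replicates 1 to 3 and OTV replicates 2 and 3 (adjusted p from 0.0541 to 0.106).

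SLC40A1 encodes ferroportin, the known exporter of iron from cells. Its saline level was 17.3, 41.8 and 19.3 CPM in myeloid nuclei and 16.6, 22.9 and 12.6 CPM in OPCs, which overlap. The remaining 3 named types lay lower, from 1.77 ± 1.11 CPM in astrocytes to 5.06 ± 4.02 in neurons. The unknown nuclei had 29.0 ± 26.3 CPM. Cluster 15, one of the unnamed clusters, had the highest mean of any cluster at 58.5 CPM, resting on 21 UMIs in saline animals. That cluster carried pericyte, mural and fibroblast markers, with 4 pericyte and mural genes summing to 2789 CPM in saline, against 7.17 CPM in myeloid nuclei. No change of SLC40A1 was called. In OTV animals it was 29.4, 13.4 and 11.9 CPM in myeloid nuclei, which overlaps saline and also overlaps ASO (41.5, 36.5 and 29.2), by OTV replicate 1. Oligodendrocytes had 3.58 to 4.04 CPM in ASO, above every saline animal (1.26 to 2.92), and 1.77 to 3.36 in OTV animals. All nuclei together had 6.58 to 7.28 CPM in ASO against 3.81 to 6.40 in saline animals. In OPCs ASO (22.2 to 27.3 CPM) overlapped saline.

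CP encodes ceruloplasmin, the copper ferroxidase that helps ferroportin release iron. It had the largest called change of the 8 genes, a fall with OTV in myeloid nuclei. Saline animals had 47.6, 24.2 and 52.4 CPM, ASO animals 30.9, 35.9 and 51.4 CPM, and OTV animals 1.05, 3.58 and 1.33 CPM in these nuclei. Every OTV animal lies far below the lowest of the other 6 animals. The OTV values rest on 9 UMIs in 1879 nuclei, against 335 UMIs in 2012 saline and 357 in 1836 ASO nuclei.

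The log2 fold change of CP in myeloid nuclei was -4.63 (SE 0.51, adjusted p = 0.000713, edgeR) for OTV minus saline and -4.53 (SE 0.51, adjusted p = 0.000470) for OTV minus ASO. For ASO minus saline it was -0.11 (SE 0.33, adjusted p = 0.950). Both calls were kept in every other setting tried, including each fit without 1 animal, with the log2 fold change between -5.17 and -3.89. With the regional term they were -4.10 (adjusted p = 0.00123) and -4.17 (adjusted p = 0.000385). Both myeloid clusters showed it, with -5.46 (SE 0.65) in cluster 7 and -3.82 (SE 0.50) in cluster 9 for OTV minus saline (adjusted p = 0.00103 and 0.00129), where 9.86% and 6.9% of genes were called.

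A CP UMI was found in 13.7% ± 3.76 of myeloid nuclei of saline animals, 15.9% ± 2.96 of those of ASO animals and 0.563% ± 0.452 of those of OTV animals. Oligodendrocytes, which hold little CP, gave 1.17% ± 0.434 in saline animals. Median depth was 3129 to 4450 UMIs in saline and 1543 to 3381 in OTV myeloid nuclei, and 4172 to 6908 in saline oligodendrocytes. With each nucleus thinned to 1000 UMIs, which left none out, the shares were 3.98% ± 1.54, 3.73% ± 0.890 and 0.188% ± 0.162 in myeloid nuclei and 0.213% ± 0.0751 in saline oligodendrocytes. Oligodendrocytes of the OTV animals gave 0.355% ± 0.0896, and 0.0656% ± 0.00933 when thinned. OTV myeloid nuclei were the lowest of the 3 myeloid groups with and without thinning.

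CP is also known from choroid plexus and astrocytes, whose markers were checked in the myeloid nuclei. The 3 choroid plexus and ependymal genes measured summed to 5.88 to 9.83 CPM in saline, 5.28 to 8.52 in ASO and 4.72 to 7.16 in OTV animals, and FOLR1 was at 0. The 5 astrocyte genes summed to 1882 to 2544, 782 to 1206 and 676 to 1607 CPM in the same order, most of it from SLC1A3, whose means were 2038, 955 and 1002 CPM. The means of SLC1A2 in these groups were 52.3, 14.3 and 68.7 CPM. The 4 myeloid genes summed to 3169 to 3285, 3039 to 3764 and 2199 to 2984 CPM. OTV is below saline in that list. The 4 endothelial genes summed to 470 to 708 CPM in saline, 765 to 891 in ASO and 185 to 741 in OTV animals, with ASO above both other groups. The mitochondrial genome genes summed to 50.5 to 232, 3.20 to 8.72 and 549 to 1424 CPM in myeloid nuclei. The part of these lists in the CP result was not tested.

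In oligodendrocytes CP was 2.78, 1.34 and 2.29 CPM in saline, 1.82, 1.19 and 1.84 in ASO, and 0.795, 0.610 and 0.914 in OTV animals, so that OTV lies below all others. OTV minus saline came to -1.40 on the log2 scale (SE 0.36, adjusted p = 0.0264, edgeR). This call was lost with the regional term (adjusted p = 0.107) and without saline replicate 1 (0.123) or OTV replicate 1, 2 or 3 (0.0651, 0.0779 and 0.0567). Within oligodendrocyte cluster 10, OTV animals had 4.37, 2.13 and 6.18 CPM, from 15, 2 and 9 UMIs. Those levels overlap saline (4.04, 3.53 and 0 CPM, the last in 9 nuclei). In OPCs and astrocytes CP did not pass the test (adjusted p = 0.0692 and 0.380), and in neurons it was not tested. The OTV mean was nevertheless below the saline mean in each. OPCs had 0.356 CPM (0 to 0.888) in OTV against 2.77 (1.30 to 4.95) in saline animals. Neurons had 0.436 (0 to 1.31) against 3.62 (2.83 to 4.83), and neither pair of ranges overlaps. Astrocytes had 0.392 (0 to 0.887) against 1.72 (0.537 to 3.51), which overlap. The OTV levels rest on 3 UMIs in OPCs, 2 in neurons and 2 in astrocytes. The unknown nuclei of ASO animals had a CP mean of 41.0 CPM (0 to 82.6 over 3 animals, 26 UMIs), and were not tested. Over all nuclei, where fewer cells of a type and less RNA per cell cannot be told apart, CP fell by 2.48 (SE 0.44, adjusted p = 0.00767) against saline and by 2.16 (SE 0.43, adjusted p = 0.0105) against ASO.

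The change of CP differed between the cell types for OTV minus ASO (edgeR test of the interaction of type and treatment with the animal as a block, adjusted p = 0.0311), as it did for 10.4% of the 16830 genes tested. Relative to oligodendrocytes, the log2 fold change was 3.70 lower in myeloid nuclei, 3.49 lower in astrocytes and 1.58 lower in OPCs. The astrocyte value rests on 2 UMIs of CP in OTV animals and on uneven ASO levels of 11.9, 0 and 3.17 CPM, and against saline the same difference was -1.18. Against saline, where 3.53% of genes were called, the difference for CP was not (adjusted p = 0.169), and none of the other 7 members was called in this test in either contrast. The call was lost without a filter on low counts, and without saline replicate 2 (adjusted p = 0.0555), OTV replicate 1 (0.290) or OTV replicate 3 (0.154). In the reference annotation CP overlaps the gene HPS3, which also fell in myeloid nuclei for OTV minus ASO (log2 fold change -0.96, adjusted p = 0.00487, edgeR) and for OTV minus saline (-0.67, adjusted p = 0.0316), and whether counting used strand is not stated in the sources used here.

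**Figure D3:**
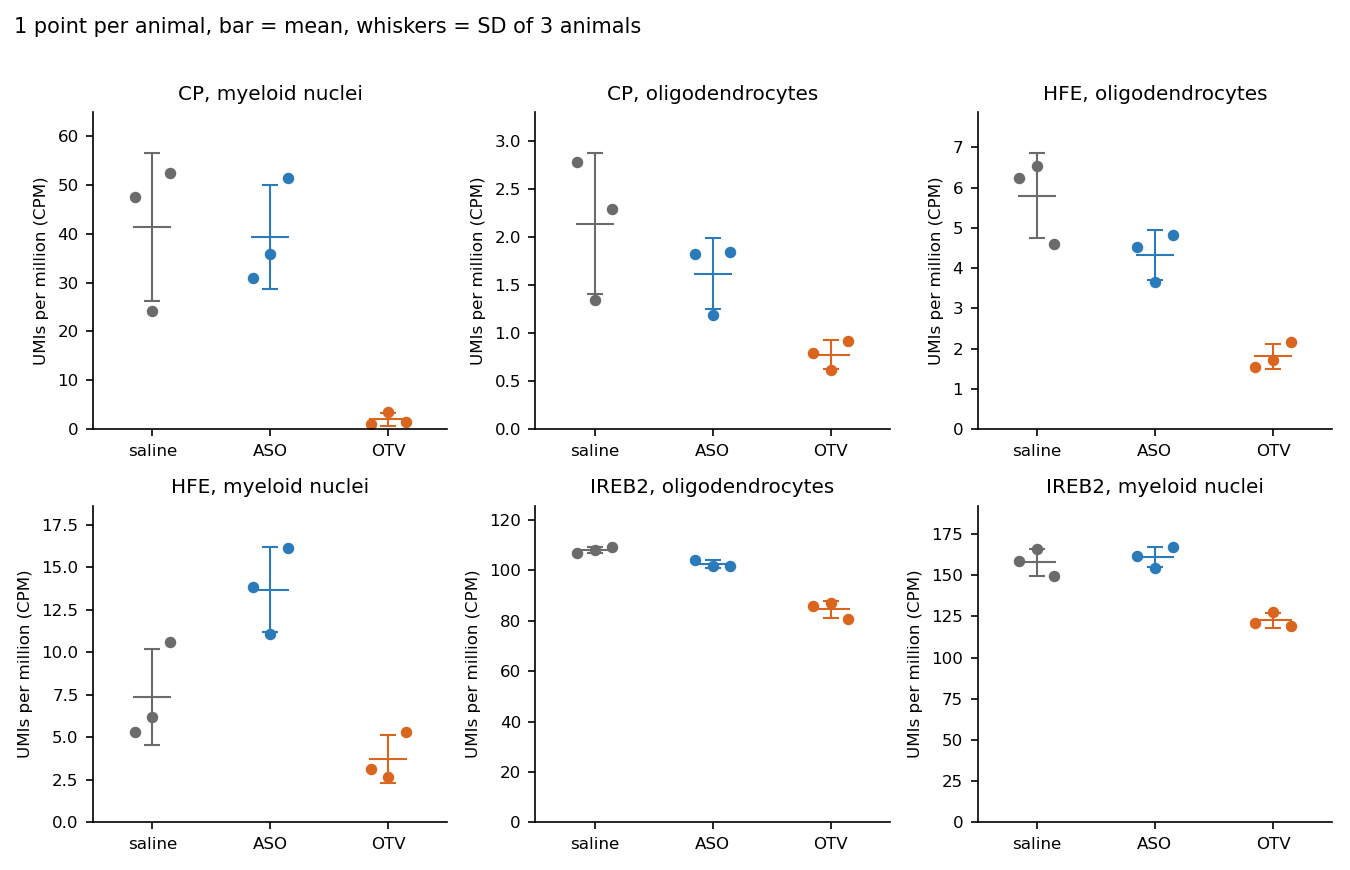
CP, HFE and IREB2 in oligodendrocytes and myeloid nuclei, in CPM. Points are animals, bars the mean and whiskers the SD of 3. CP in myeloid nuclei is 1.05 to 3.58 in OTV animals against at least 24.2 in the others, and OTV is the lowest group in all 6 panels.

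HFE encodes a protein related to class I antigen-presenting molecules that binds the transferrin receptor and is altered in hereditary haemochromatosis. In saline animals it was highest in myeloid nuclei (7.37 ± 2.85 CPM) and oligodendrocytes (5.79 ± 1.06), which overlap, and lowest in neurons (0.142 ± 0.127, SD, n = 3). The unknown nuclei had 17.9 ± 13.2 CPM of HFE. Cluster 15 had the highest saline mean of the clusters, 37.7 CPM, on only 7 UMIs. Among the oligodendrocyte clusters, cluster 5 had the highest saline mean at 12.8 CPM, against 4.81 to 6.56 in the other 6. That mean rests on replicate 3, with 22.7 CPM from 6 UMIs in 55 nuclei, beside 6.41 and 9.19 CPM in replicates 1 and 2. In replicate 1, cluster 10 was higher (7.41 CPM).

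HFE fell with OTV in oligodendrocytes. The level there was 6.25, 6.55 and 4.59 CPM in saline, 4.51, 3.64 and 4.83 in ASO, and 1.55, 1.71 and 2.15 in OTV animals. All OTV animals lie below the other 6, and saline and ASO overlap. On the log2 scale HFE fell by 1.67 (SE 0.23, adjusted p = 0.00170, edgeR) against saline and by 1.18 (SE 0.23, adjusted p = 0.00557) against ASO. Both calls were kept in every other setting tried, with values from -1.79 to -1.04. Taken 1 cluster at a time, HFE was called lower against saline in clusters 1, 2, 3 and 5 (-2.19, -2.34, -1.79 and -2.12) and not in cluster 0 (-0.95, adjusted p = 0.0810). Of all genes tested in clusters 0, 1, 2, 3 and 5, 15.6%, 13%, 16.3%, 12.7% and 12.1% were called.

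In myeloid nuclei HFE was 5.32, 6.18 and 10.6 CPM in saline, 13.8, 11.1 and 16.1 in ASO, and 3.15, 2.68 and 5.31 in OTV animals. The 3 groups do not overlap, with ASO highest and OTV lowest, although the lowest saline and the highest OTV animal are nearly equal. OTV minus ASO came to -1.97 on the log2 scale (SE 0.40, adjusted p = 0.00760, edgeR) and was kept in the other settings in which HFE could be tested. Neither OTV minus saline (-1.07, SE 0.41, adjusted p = 0.118) nor ASO minus saline (0.90, SE 0.34, adjusted p = 0.386) was called. These values rest on 19 UMIs in OTV, 57 in saline and 123 in ASO animals. Over all nuclei HFE fell by 1.11 (SE 0.32, adjusted p = 0.0492) with OTV against saline. It was not called without a filter (adjusted p = 0.0615), in thinned sums (0.0550), with the regional term (0.0562) or in a fit of only the 6 animals compared (0.105). The fit without saline replicate 3 kept that call, and the fits without any other 1 animal lost it (adjusted p from 0.0608 to 0.133).

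ACO1 encodes cytosolic aconitase, which becomes iron regulatory protein 1 when it loses its iron-sulphur cluster. It was highest in astrocytes of saline animals (72.2, 61.4 and 109 CPM), above myeloid nuclei (53.7 ± 3.24), and lowest in oligodendrocytes (38.0 ± 6.06, SD, n = 3). The unknown nuclei, outside this order, had 90.4 ± 80.7 CPM of ACO1. Oligodendrocytes were lowest in 8 of 9 animals. No difference between the groups was called in any type. In astrocytes OTV animals had 86.0, 63.0 and 74.9 CPM and ASO animals 56.0, 52.7 and 95.9 CPM, so the groups overlap.

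IREB2 encodes iron regulatory protein 2, which is degraded when iron is plentiful. Of the 5 named types, myeloid nuclei were highest in 9 of 9 animals (158 ± 8.18 CPM in saline), while the other 4 lay between 97.6 ± 9.22 and 108 ± 1.28 and overlapped. In OTV animals the unknown nuclei had 154 ± 30.7 CPM of IREB2, above the myeloid mean there. IREB2 was called lower with OTV in 3 types, by smaller amounts than CP or HFE where those were called. Its OTV mean was below its saline mean in all 5 named types. In oligodendrocytes it was 107, 108 and 109 CPM in saline, 104, 102 and 102 in ASO, and 85.8, 86.9 and 80.7 in OTV animals. OTV lies below all others, and the spread within a group is small. Against saline, the edgeR estimate was -0.31 on the log2 scale (SE 0.08) at an adjusted p of 0.0305.

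In myeloid nuclei IREB2 was 159, 166 and 149 CPM in saline, 162, 155 and 167 in ASO, and 121, 128 and 119 in OTV animals. OTV again lies below the other 6 animals, with log2 fold changes of -0.42 (SE 0.10, adjusted p = 0.0254, edgeR) against saline and -0.40 (SE 0.10, adjusted p = 0.0196) against ASO. OPCs had 103, 108 and 113 CPM in saline and 91.1, 78.6 and 77.5 in OTV animals (-0.33, SE 0.11, adjusted p = 0.0458). Astrocytes had 118, 105 and 94.4 CPM in saline and 89.0, 90.5 and 76.9 in OTV animals, which do not overlap but were not called (-0.27, adjusted p = 0.215).

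The IREB2 calls are near the threshold. With the regional term the OTV minus saline values were -0.32, -0.43 and -0.28 in oligodendrocytes, myeloid nuclei and OPCs, and none was called (adjusted p = 0.0826, 0.0627 and 0.164). In sums thinned to equal totals IREB2 was still called in OPCs (-0.43, adjusted p = 0.0273) but not in oligodendrocytes (-0.31, adjusted p = 0.0710), and the myeloid value became -0.26 (adjusted p = 0.302) against saline and -0.29 (adjusted p = 0.197) against ASO. Without a filter on low counts, the 3 OTV minus saline calls were lost in oligodendrocytes, myeloid nuclei and OPCs (adjusted p = 0.0514, 0.0653 and 0.0651). Fits of only the 6 animals compared lost them too (0.0512, 0.0795 and 0.0645). DESeq2 did not call OPCs (adjusted p = 0.0516), and nuclei of at least 2000 UMIs gave no myeloid call against saline (0.0702) or ASO (0.0575). Leaving out 1 animal ended the call in oligodendrocytes for saline replicate 1, 2 or 3 and OTV replicate 2 or 3 (adjusted p from 0.0622 to 0.0923). It ended it in OPCs for every animal except OTV replicate 1 (0.0503 to 0.116) and in myeloid nuclei against saline for every animal except saline replicate 3 and ASO replicate 2 (0.0502 to 0.0914). Against ASO, the myeloid call was lost without ASO replicate 1 or 3 or OTV replicate 2 or 3 (0.0503 to 0.0683).

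Counted over the 8 genes, ASO minus saline gave 0 calls in all nuclei, where 0.032% of 21854 genes tested were called, and 0 calls among 37 tests in the 5 types. The background was 0.394% in oligodendrocytes, 0.262% in OPCs, 0.197% in myeloid nuclei, 0.0147% in astrocytes and 0% in neurons. DESeq2 also called 0 in all nuclei and 0 over the 5 types, at an adjusted p under 0.05. At an unadjusted p under 0.05, edgeR gave 0 genes in all nuclei and 4 of the 37 tests. The 4 were SLC11A2 lower in oligodendrocytes, TF higher in OPCs and in astrocytes, and HFE higher in myeloid nuclei, by unadjusted p alone. Over all genes, 2079 of 21854 passed that edgeR threshold in all nuclei, 2393 of 20036 in oligodendrocytes and 1432 of 14894 in OPCs. In myeloid nuclei, astrocytes and neurons it was 1311 of 12667, 830 of 13608 and 234 of 9457. The 4 of 37 are thus close to the share over all genes.

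OTV minus saline gave 2 calls of 8 in all nuclei, HFE and CP, both lower, against 15.7% of all genes. In the types it gave 3 of 8 in oligodendrocytes (background 19.2%), 2 of 8 in OPCs (22.1%), 2 of 8 in myeloid nuclei (12%), 1 of 8 in astrocytes (15.4%) and 0 of 5 in neurons (6.82%). The neuronal 0 was also 0 at an unadjusted p under 0.05 (edgeR), where 2527 of 9457 genes passed. OTV minus ASO gave 1 of 8 in all nuclei (17.9%), 1 of 8 in oligodendrocytes (26.3%), 1 of 8 in OPCs (27.2%), 3 of 8 in myeloid nuclei (20.5%), 0 of 8 in astrocytes (22%) and 0 of 5 in neurons (5.23%). Several of these shares are near the background. The medians of the 8 log2 fold changes for OTV minus saline were 0.02 in all nuclei, -0.12 in oligodendrocytes and -0.37 in myeloid nuclei. They were 0.18 in OPCs, 0.17 in astrocytes and 0.50 in neurons, the last over 5 genes. Over all genes tested the medians were -0.06, -0.02, -0.03, -0.01, -0.02 and -0.02 in the same order. Saline is shared by 2 of these contrasts and OTV by 2, so they are not independent. The plot of fold changes shows the members side by side.

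**Figure D4:**
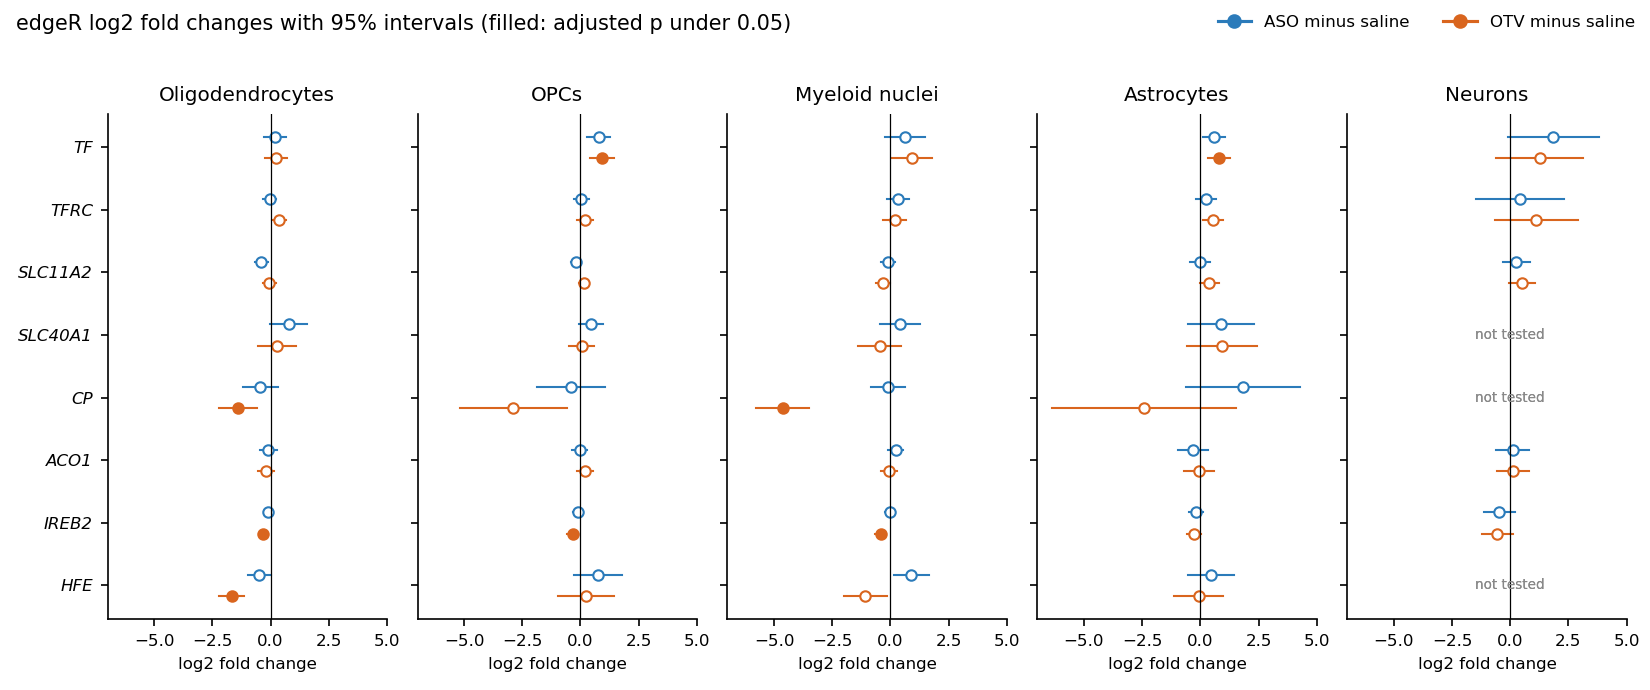
edgeR log2 fold changes of the 8 genes against saline in 5 cell types, with 95% intervals, for ASO (blue) and OTV (orange). Filled points have an adjusted p under 0.05. All filled points are OTV: CP in myeloid nuclei stands farthest from 0 at -4.63, followed by HFE and CP in oligodendrocytes.

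Further lists of iron metabolism genes were counted in all nuclei, where 15.7% of all genes tested were called for OTV minus saline. Of 15 genes of heme synthesis and breakdown, 1 rose and 1 fell with OTV. ALAD, an enzyme of heme synthesis, rose by 0.66 on the log2 scale (SE 0.15, adjusted p = 0.0208, edgeR), and HMOX1, the inducible heme oxygenase that frees iron from heme, fell by 1.35 (SE 0.24, adjusted p = 0.00774). Among the 9 mitochondrial iron and iron-sulphur genes tested, 2 rose and 0 fell. These were SLC25A28, a mitochondrial iron importer (0.49, SE 0.13, adjusted p = 0.0377), and ABCB8, a mitochondrial transporter (0.66, SE 0.19, adjusted p = 0.0491). None of the 9 genes of the transferrin cycle, 9 of efflux and the hepcidin axis, 7 of uptake without transferrin, 2 of ferritin turnover and 6 controlling the iron regulatory proteins was called. The list medians ran from -0.56 for the transferrin cycle to 0.38 for ferritin turnover, against -0.06 over all genes. For ASO minus saline, no gene of these 7 lists was called in all nuclei. HMOX1 also fell with OTV against saline in oligodendrocytes (-1.38, adjusted p = 0.00762), myeloid nuclei (-1.43, adjusted p = 0.00232) and astrocytes (-1.80, adjusted p = 0.0445).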

How the data were processed

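The members and gene lists were chosen with earlier results of these data known. The authors deposited 1 matrix of raw UMI counts and a table of nuclei with animal, cell type, cluster, total counts and a doublet score; the deposited score was not used, and no nuclei were dropped as doublets. Cell Ranger 6.1.2, Seurat 4 and GRCh38.p13 are named in the submitters' processing notes without a role. Features without a symbol carry macaque identifiers, so the build behind the counts is unclear and no coordinates are given. Neighbouring genes come from RefSeq's annotation of the species. How reads were counted is not stated in the sources used here. Total counts per nucleus equal the matrix sums in all 79994 nuclei, and the smallest is 1018.

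For each animal, counts were added up over all its nuclei and within each type with at least 15 nuclei in every animal. The sums were fitted with edgeR 4.0.16 (R 4.3.3; TMM, filterByExpr, robust quasi-likelihood) over 9 animals. A gene was called at a Benjamini-Hochberg adjusted p under 0.05 over all genes of a fit. All 8 genes passed the filter in all nuclei and 4 types, and 5 in neurons, where SLC40A1, HFE and CP were too low. The SE was derived from the log2 fold change and its F statistic. DESeq2 1.42.0, other filters, thinning, a regional term and leaving out animals were alternatives, and fits within clusters were added after seeing the data. Named genes are all members and, per list, up to 3 genes called for OTV minus saline in all nuclei; HEPHL1, FBXL5, LRP1, PICALM, TNK2 and HPS3 were picked after their values were seen. On simulated oligodendrocyte counts (19747 genes) the test recovered 88% to 100% of genes changed by 1 or 2 on the log2 scale. Only genes above a set level were changed there, with the same spread for every gene. The rate therefore does not carry over to low genes such as CP, HFE and SLC40A1, to smaller changes or to the smaller types.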

Additional observations from a re-analysis of the deposited data

Results flagged for a closer look

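The change of CP between OTV and ASO animals differed between oligodendrocytes, OPCs, myeloid nuclei and astrocytes (edgeR interaction test, adjusted p = 0.0311). It stands here because the difference between the types was itself past the threshold of a test. CP was 24.2 to 52.4 CPM in saline and ASO myeloid nuclei and 1.05 to 3.58 CPM in OTV myeloid nuclei. The adjusted p was 0.290 without OTV replicate 1, 0.154 without OTV replicate 3 and 0.0555 without saline replicate 2. The call was also lost without a filter on low counts.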

How the results depend on the processing

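Of 34 log2 fold changes followed through the alternatives, 16 were called, and 7 of these kept their call in every setting in which they could be tested: CP in all nuclei and in myeloid nuclei, each against saline and ASO, HFE in oligodendrocytes against both, and HFE in myeloid nuclei against ASO. None of the 16 reversed. Calls for OTV minus saline in all nuclei went from 2 to 1 without a filter, in thinned sums, with the regional term and in fits of only the 6 animals compared. Over the 5 types they went from 8 to 5 in thinned sums, 2 with the regional term and 4 in fits of 6 animals. For OTV minus ASO in all nuclei they went from 1 to 3 with DESeq2 and to 2 with nuclei of at least 2000 UMIs, with the regional term and in fits of 6 animals, and over the types from 5 to 3 in thinned sums. Calls in the interaction test for OTV minus ASO went from 1 to 0 without a filter. The cause was not tested. The share of all genes called in each alternative is not given here, so these counts cannot be read against it. Leaving out 1 animal gave 1 to 2 calls for OTV minus saline in all nuclei and 2 to 8 over the types, 1 to 3 and 3 to 7 for OTV minus ASO, 0 for ASO minus saline, and 0 to 2 in the interaction test for OTV minus ASO. The lowest OTV minus saline count over the types, 2, came without OTV replicate 3, and the highest OTV minus ASO count in all nuclei, 3, without saline replicate 3.

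The exact p for TFRC in all nuclei became 0.0214 on TMM-normalized library sizes, and leaving out 1 animal gave 0.0536 to 0.254 there, 0.0286 to 0.0464 in oligodendrocytes and 0.0107 to 0.0571 in astrocytes. TFRC log2 fold changes, none called by edgeR with TMM, changed sign in some fits. Without 1 animal, ASO minus saline ran from -0.089 to 0.014 in oligodendrocytes, -0.087 to 0.13 in OPCs and -0.050 to 1.28 in neurons, OTV minus saline from -0.049 to 0.34 in myeloid nuclei, and OTV minus ASO from -0.37 to 0.016 in myeloid nuclei and -0.0053 to 1.21 in neurons. The reversals came without ASO replicate 3 (oligodendrocytes), saline replicate 3 (-0.00091) or ASO replicate 2 (OPCs), ASO replicate 1 or OTV replicate 1 (neurons), and OTV replicate 3 or 1 (myeloid nuclei), and with the regional term in OPCs (-9.7e-05). The IREB2 level in myeloid nuclei was 147 CPM over all 9 animals. No paired analysis was possible because the labels tie no animal of one group to an animal of another, and their animal numbers differ between the groups. Few UMIs limit CP and HFE: OTV myeloid nuclei hold 9 and 19 of them, and OTV OPCs 3 and 14.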

Other observations

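Over the 7 further lists of iron metabolism genes, edgeR called 8 of 55 genes in oligodendrocytes for OTV minus saline, 8 of 51 in OPCs, 5 of 48 in myeloid nuclei and 7 of 51 in astrocytes. Over all genes tested 19.2%, 22.1%, 12% and 15.4% were called in these types, so the lists hold no larger share of calls than all genes there. The genes named next are some of those called, picked after their values were seen. HEPHL1, a ferroxidase related to ceruloplasmin, fell by 2.59 on the log2 scale in OPCs (adjusted p = 0.0107) and by 1.58 in oligodendrocytes (adjusted p = 0.0307). FBXL5, the iron-sensing part of the complex that degrades iron regulatory proteins, fell by 0.43 in OPCs (adjusted p = 0.00617) and by 0.49 in astrocytes (adjusted p = 0.0434). LRP1, an endocytic receptor, rose by 1.40 in astrocytes (adjusted p = 0.00661), by 0.59 in OPCs (0.00305) and by 0.52 in myeloid nuclei (0.0194). PICALM, a clathrin adaptor used in transferrin uptake, fell by 0.86 in myeloid nuclei (adjusted p = 0.00395). TNK2, which is in none of these lists and lies next to TFRC in the reference annotation, rose by 1.74 in oligodendrocytes (adjusted p = 0.00359), 1.98 in astrocytes (0.0231), 1.51 in myeloid nuclei (0.00579) and 1.33 in OPCs (0.00642). It was also higher in all nuclei (1.28, adjusted p = 0.0429), so its rise was not limited to 1 type.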
